A study of Homo sapiens with 12 samples.

Results

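The regions described here carried lysine succinylation (Ksu) peaks in both libraries of HepG2/C3A cells given sodium succinate and in neither control library, when the same number of peaks was taken from each library. They were chosen by the deposited Ksu peak lists themselves: on chromosomes 1 to 22, X and Y, the 76702 peaks with the highest total signal were taken from each of 4 libraries, which is the length of the shortest list. Overlapping peaks were merged into 266381 union regions, and the 5169 regions overlapped by a peak of both succinate libraries and of no control library were kept. That is 1.94% of the union regions, a share fixed by the rule, which used the Ksu peaks of this contrast. HepG2/C3A is a hepatocellular carcinoma line. Control cells, called vehicle-treated in the design text, and cells given 10 mM sodium succinate were both kept for 48 hours, and each combination of antibody and treatment had 2 libraries described as biological replicates. CUT&Tag, in which an antibody brings a transposase to chromatin, was run with a pan-Ksu antibody, which binds succinylated lysine on any protein, and with an antibody to histone H3 trimethylated at lysine 27 (H3K27me3). The labels do not say that replicates came from separate cultures, so p-values measure the spread between these libraries only. IgG samples were not analysed here. The labels give the H3K27me3 and IgG antibodies the same catalogue number, so which product was used for H3K27me3 is not settled by them. Peak lists hold no expression values against which the cell type could be checked.

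Succinyl groups are added to lysine from succinyl-CoA, an intermediate of the tricarboxylic acid cycle, and are removed by deacylases such as SIRT5. Succinate is also a product and an inhibitor of the 2-oxoglutarate dioxygenases, the enzyme family that includes the Jumonji histone demethylases and the TET DNA dioxygenases. H3K27me3 is laid down by Polycomb repressive complex 2 (PRC2) over silenced developmental genes and can spread over broad domains.

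A small number of the regions lay at gene starts, and the sequences of these promoters can be shown from RefSeq (GRCh38.p14, the coordinate system of hg38). Of the 5169 regions, 31 (0.600%) overlapped a promoter window, taken as 250 bases before to 50 after a listed start of a protein-coding gene. The share was 0.437% for the 4806 regions found only in control and 0.463% for all union regions, whose median length is 859 bp against 1345 bp. It ran from 0.494% to 0.641% for the other pairs of libraries, so the share was not high among regions of 2 libraries. Promoter windows numbered 22078 for 15743 genes, so a gene can have several, and a window need not lie at its main start. The windows of the 6 genes whose regions ranked highest in both succinate libraries follow. They are given 5′ to 3′ on the strand of the gene, with every CG dinucleotide in capitals. MSH4, a meiotic recombination gene, has its window at chr1:75796632-75796931 on the plus strand. RAET1E, which encodes a ligand of the NKG2D receptor, has its window at chr6:149890895-149891194 on the minus strand. ELK3, an ETS transcription factor, has its window at chr12:96255248-96255547 on the plus strand. DNMT3B, a de novo DNA methyltransferase, has its window at chr20:32779602-32779901 on the plus strand. CACNB2, a calcium channel subunit, has its window at chr10:18400325-18400624 on the plus strand. AGMO, an ether lipid monooxygenase, has its window at chr7:15561966-15562265 on the minus strand.
MSH4: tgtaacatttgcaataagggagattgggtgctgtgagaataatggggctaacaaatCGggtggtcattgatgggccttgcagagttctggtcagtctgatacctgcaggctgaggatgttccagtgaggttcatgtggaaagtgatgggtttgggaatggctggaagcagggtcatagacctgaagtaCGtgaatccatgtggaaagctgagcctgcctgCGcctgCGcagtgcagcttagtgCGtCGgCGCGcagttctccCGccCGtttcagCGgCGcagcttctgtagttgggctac
RAET1E: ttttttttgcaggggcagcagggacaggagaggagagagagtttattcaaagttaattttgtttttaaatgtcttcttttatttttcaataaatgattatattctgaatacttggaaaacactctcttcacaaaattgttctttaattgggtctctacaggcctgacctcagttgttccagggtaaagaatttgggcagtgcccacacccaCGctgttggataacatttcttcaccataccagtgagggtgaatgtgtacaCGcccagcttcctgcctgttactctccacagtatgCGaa
ELK3: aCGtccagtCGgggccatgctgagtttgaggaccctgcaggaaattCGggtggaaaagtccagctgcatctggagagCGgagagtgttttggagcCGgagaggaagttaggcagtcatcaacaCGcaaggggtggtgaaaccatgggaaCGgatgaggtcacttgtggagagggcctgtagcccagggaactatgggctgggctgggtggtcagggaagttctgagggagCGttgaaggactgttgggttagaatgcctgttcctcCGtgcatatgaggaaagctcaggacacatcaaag
DNMT3B: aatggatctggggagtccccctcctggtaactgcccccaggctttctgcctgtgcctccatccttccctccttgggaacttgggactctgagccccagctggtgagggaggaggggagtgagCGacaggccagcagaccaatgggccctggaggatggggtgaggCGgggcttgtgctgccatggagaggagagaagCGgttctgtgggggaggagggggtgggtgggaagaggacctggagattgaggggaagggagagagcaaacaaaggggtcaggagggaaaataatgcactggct
CACNB2: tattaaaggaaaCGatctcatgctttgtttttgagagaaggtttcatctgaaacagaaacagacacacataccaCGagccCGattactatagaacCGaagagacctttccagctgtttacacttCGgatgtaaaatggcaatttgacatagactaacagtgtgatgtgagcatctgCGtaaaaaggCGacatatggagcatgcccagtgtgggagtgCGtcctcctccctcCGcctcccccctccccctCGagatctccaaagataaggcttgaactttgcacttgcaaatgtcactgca
AGMO: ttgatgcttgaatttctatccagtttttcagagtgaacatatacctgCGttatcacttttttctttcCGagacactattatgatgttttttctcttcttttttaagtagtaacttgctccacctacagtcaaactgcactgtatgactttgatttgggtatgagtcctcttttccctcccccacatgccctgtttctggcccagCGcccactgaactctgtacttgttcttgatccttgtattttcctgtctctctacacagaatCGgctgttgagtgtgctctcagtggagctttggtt

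The AGMO window was covered over all 300 bases by the peaks of both succinate libraries. The CACNB2 window was covered over 298 bases in succinate replicate 1 and 300 bases in replicate 2. The peaks met the other 4 windows in 1 library each, with 196, 208 and 183 bases covered at MSH4, RAET1E and DNMT3B in replicate 1, and 300 bases at ELK3 in replicate 2. At these 4 genes the other library's peak lay elsewhere in the same merged region. The promoters concerned were low in CG: the 32 windows (31 genes) had a median of 5 CG dinucleotides and a GC content of 53.7%, against 21 and 62.3% for all 22078 promoter windows of protein-coding genes. The 22 windows met by control-only regions also had a median of 5 CG, with a GC content of 49.5%, and the 1385 windows met by any union region had 8 and 54%. The CG content thus lay below that of all promoters for both kinds of region. Motifs were counted on both strands. GGGCGG, which contains a CG and is the core of the GC box, was found in 7 of the 32 windows (21.9%) and in 56.3% of all windows. CCAAT was found in 12 (37.5%) and in 34.7% of all windows, and TATAAA in 2 (6.25%) and in 9.50%. For the 22 windows at control-only regions the counts were 6, 10 and 5. These are matches of letters and not binding sites.

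The number of regions was within the range of the other pairings of libraries. Besides the 5169 regions present only in succinate and the 4806 only in control, 6545 belonged to the replicate 1 libraries alone and 5643 to the replicate 2 libraries alone. The mixed pairs held 4457 (control replicate 1 with succinate replicate 2) and 3274 (control replicate 2 with succinate replicate 1). At equal numbers of peaks the count by itself therefore did not set succinate apart. Equal numbers were not equal sets, since the peaks used covered 80.4 and 56.5 Mb in control replicates 1 and 2. In succinate replicates 1 and 2 they covered 67.4 and 69.7 Mb. Their lowest total signals, in the same order, were 8977, 3515, 7448 and 7023 steps. How far this shaped the counts of each pair was not tested. With unequal numbers of peaks the counts of the treatments differed. Above a common floor of 8977 steps of total signal, 2186 regions were only in succinate and 330 only in control. With all peaks of the lists the counts were 56291 and 6579. At that floor control replicate 1 kept all of its peaks and each other library fewer than 76702. The number of peaks kept by a library limits such counts, and its part was not tested. The word "only" applies to the peaks used. In the complete lists, 1797 of the regions (34.8%) overlapped a lower-ranked peak of control replicate 2, whose rank started at 76770 and had a median of 203103 among 382019 peaks. No lower-ranked peak of control replicate 1 could exist, since all of its 76702 peaks were used. The remaining 3372 regions (65.2%) had no control peak at all. Of the control-only regions, 1742 had no succinate peak in the complete lists, 24.9% overlapped a lower-ranked peak of succinate replicate 1 and 53.1% one of replicate 2. The lists differ in length (76702 and 382019 peaks in control, 294568 and 629903 in succinate), and read depth is unknown.

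**Figure D1:**
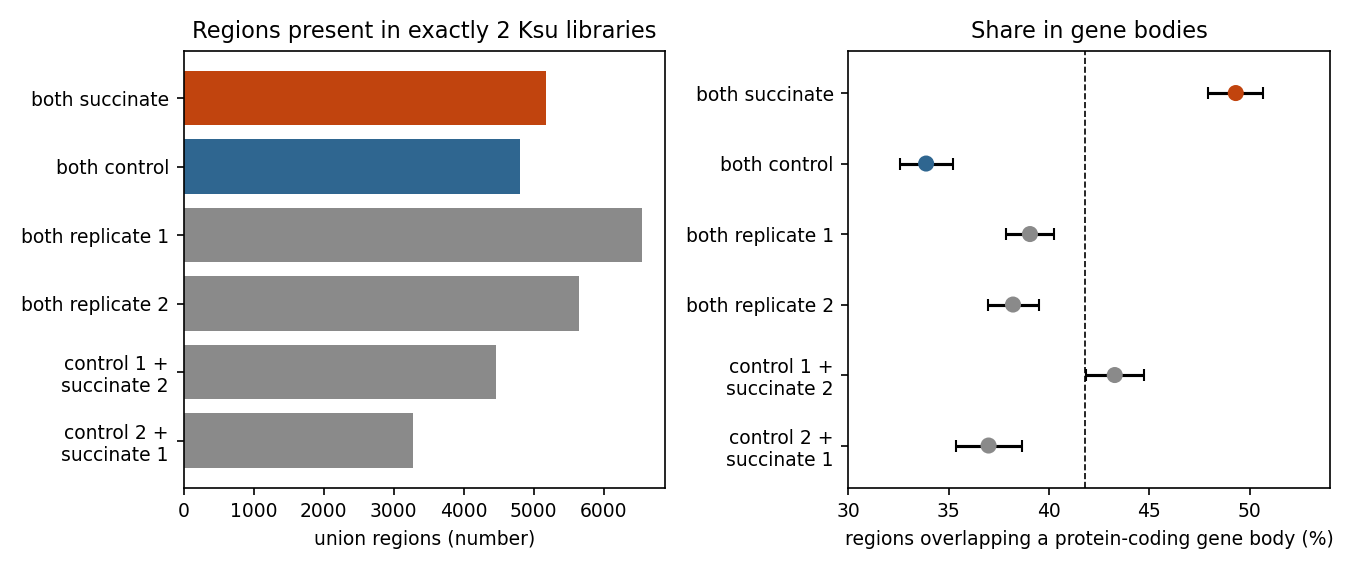
Left, number of union regions present in exactly the 2 named Ksu libraries; right, share of those regions overlapping a protein-coding gene body, with 95% Wilson intervals, an axis that does not start at 0 and a dashed line at 41.8% for all union regions. The succinate pair holds 5169 regions, inside the range of 3274 to 6545 of the pairs that mix treatments, and has the highest gene body share at 49.3%.

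The overlaps can also be described by pair: regions were chosen within replicate 1 and looked up in replicate 2, and the other way round. Of 67513 regions present in succinate and not in control of replicate 1, 9.06% had a peak in succinate replicate 2 and 6.25% in control replicate 2. Of 67586 regions present in control and not in succinate of replicate 1, the shares were 8.23% and 8.75%. Taken singly, each replicate 2 library thus lacked a peak at over 90% of the chosen regions. A peak in neither of them was the case for 58122 of the 67513 regions and 57218 of the 67586. From replicate 2 to replicate 1, regions chosen for succinate (68245) were found at 9.0% in succinate and 7.95% in control, and those chosen for control (68180) at 6.05% and 8.30%. On the log2 scale, the ratio of the succinate share to the control share was higher after a choice for succinate than after a choice for control by 0.62 in the first direction and 0.63 in the other. Both values come from nearly the same overlap counts, with the succinate-only regions among them, so they are not separate replicates and their closeness carries no weight. They use the peaks by which the regions were chosen and are a description.

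The peaks that made up the regions were of ordinary strength for their libraries. Signal is given in steps, since every highest-signal value in a library was a whole multiple of a step (within 0.02 of a whole number) and the step differed between libraries. In succinate replicate 1 the highest signal of the members' peaks ranged from 10 to 100 steps with a median of 29, equal to the median of 29 over all peaks used. In replicate 2 it ranged from 9 to 103 with a median of 29, against 28 for the library. Total signal had a median of 9723 steps against 9277 for the library in replicate 1, and 9382 against 8800 in replicate 2. Members were 381 to 4195 bp long with a median of 1345 bp, and 97.2% consisted of a single peak from each succinate library. The highest points of the peaks from the 2 libraries lay a median of 372 bp apart, and 31.6% lay within 200 bp. The medians for the other 5 pairs of libraries ran from 336 to 420 bp, on both sides of this value. Strength in one library said little about strength in the other: the Spearman correlation of the ranks was 0.036 over the 5169 regions, which share both libraries and were all limited to the same number of ranks. Only 580 regions (11.2%) were in the top 25% of both sets of peaks.

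The strongest regions, taken by the worse of the ranks in the libraries, lay mostly between genes or inside long genes. The first lay at chr11:70725475-70728478 in SHANK2, a postsynaptic scaffold gene, with ranks 128 and 573 and total signals of 27972 and 21132 steps in succinate replicates 1 and 2. The second, at chr1:17146920-17148215, overlapped no protein-coding gene and lay 28.1 kb from the nearest start in the promoter table, that of PADI2, a peptidylarginine deiminase. Its highest points, at 67 and 68 steps, were 101 bp apart. The third lay at chr20:48282436-48284313 outside protein-coding genes, with ranks 693 and 638. All 3 overlapped a lower-ranked peak of control replicate 2. Of the 10 strongest, 5 lay in a gene body (SHANK2, RPS6KA2, TSHZ2, NEBL and FBXO36) and 5 did not, and 8 overlapped a lower-ranked peak of control replicate 2. The 2 without any control peak were in TSHZ2 (chr20:53295728-53297936, ranks 30 and 1399) and FBXO36 (chr2:230005566-230008617, ranks 1489 and 14). The next regions without a control peak lay in NBAS (chr2:15514754-15517096), in CIMIP1 (chr20:58155675-58157446) and 152 kb from the start of TWIST2 (chr2:238997995-239001180). By length, the first was a region of 4195 bp at chr17:50060604-50064798 in the integrin gene ITGA3, of which succinate peaks covered 2051 bp (replicate 1) and 4113 bp (replicate 2). The following 4 lay in BCAS4, NDUFA10, KCNAB2 and PTPRT and were 3641 to 4026 bp long. At the limit of the choice, the last region inside (chr16:10934391-10935468, in CIITA and DEXI) had ranks 76697 and 76227 and signals of 7448 and 7039 steps. The first outside (chr10:17779376-17780176) had ranks 39045 and 76704, with 9227 and 7023 steps.

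The regions lay inside genes more often than the control-only regions did. A protein-coding gene body was overlapped by 49.3% of them (95% Wilson interval 48.0 to 50.7, counting error only), by 33.9% of control-only regions (32.5 to 35.2) and by 41.8% of all union regions. The other pairs of libraries gave 37.0% to 43.3%. The difference between succinate-only and control-only regions was 15.4 percentage points, or 14.7 when taken within each chromosome, and the share was higher in 22 of 22 autosomes. It was 9.05 points without control replicate 2, when a peak in control replicate 1 alone made a control-only region. Median lengths were alike, at 1345 and 1373 bp. Regions with no control peak in the complete lists had a share of 51.2%, and those with a lower-ranked peak 45.8%. The same direction was present in regions found in a single library, at 45.9% and 47.5% for the succinate libraries against 39.4% and 35.5% for the control libraries, so it was not particular to regions shared by both succinate libraries. Within replicate 1, regions present in succinate and not control had a share of 45.7% and the reverse 39.2%, and within replicate 2 the shares were 47.3% and 35.5%. In bodies of long non-coding RNA genes the order was the opposite, with 16.4% of succinate-only, 20.2% of control-only and 17.7% of all regions.

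Distance to gene starts differed in the same way, over the 5018 succinate-only and 4590 control-only regions outside chromosome 8. The middle of a succinate-only region lay a median of 77.5 kb from the nearest start of a protein-coding gene, against 246 kb for control-only regions and 122 kb for all regions, with 116 to 164 kb for the other pairs. Within 50 kb of a start lay 38.3%, 14.9% and 29.9%, respectively. The median was nearer for succinate-only regions in 20 of 21 autosomes. Regions of a single succinate library lay at 86.5 and 78.5 kb, and those of a single control library at 154 and 194 kb. Within 5 kb of a start lay 3.49% of succinate-only, 1.96% of control-only and 3.82% of all regions, so succinate-only regions were no more frequent close to starts than all regions were.

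Of 20037 protein-coding genes, 1776 (8.86%) held at least 1 region, and 840 held a control-only region. Both kinds were present in 357 genes. The genes differed in size, with a median length of 130 kb for those with a succinate-only region and 273 kb for those with a control-only region, where all genes had 24.1 kb. Per Mb of gene body, genes of 10 to 50 kb held 1.65 succinate-only and 0.350 control-only regions, a ratio of 4.73. Genes of 50 to 200 kb held 2.15 and 0.588. In genes of 200 to 1000 kb the values were 2.17 and 1.90, close to equal, and in the 69 genes of 1 Mb or more they were 1.62 and 3.57, a ratio of 0.453. The excess of succinate-only regions thus lay in genes of short and middle length, and the longest genes held more control-only regions. Of the 155 succinate-only regions in the longest genes, 31 were in KAZN. MACROD2, a mono-ADP-ribosylhydrolase gene of 2058 kb, held 3 succinate-only and 24 control-only regions. CTNNA2, an alpha-catenin gene, held 4 and 14, and SGCD, a sarcoglycan gene, 0 and 14.

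**Figure D2:**
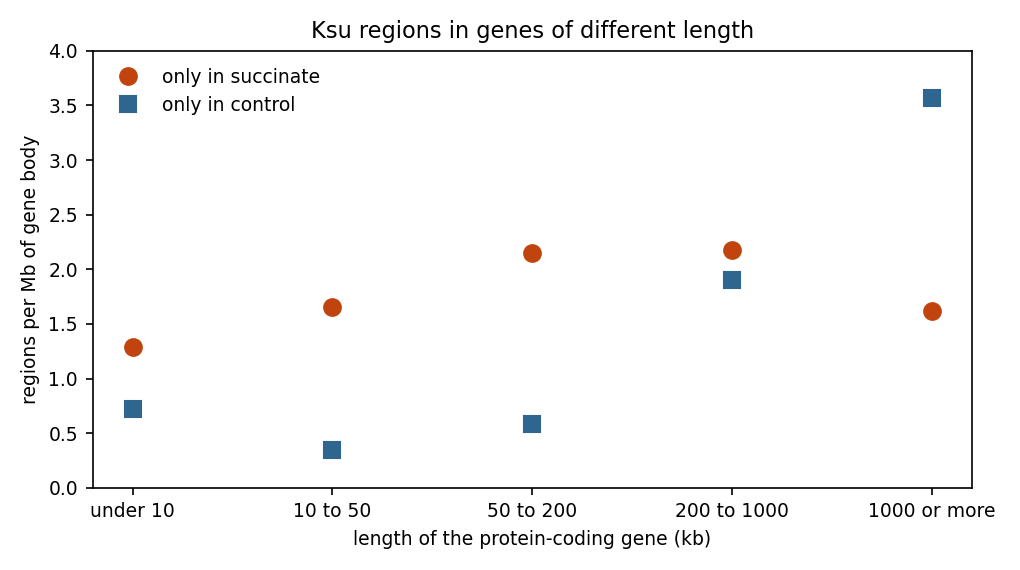
Regions per Mb of gene body (vertical axis, starting at 0) for protein-coding genes grouped by length in kb; circles are regions only in succinate, squares regions only in control. Circles stay between 1.29 and 2.17 per Mb, while squares rise to 3.57 per Mb in genes of 1 Mb or more.

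The genes with most regions were long genes, and the number of peaks in them was counted in each library. KAZN encodes kazrin, a protein of cell junctions and the cytoskeleton, and lies at chr1:13892824-15118043. It held 31 succinate-only and 2 control-only regions, and its peaks numbered 52 and 54 for control replicates 1 and 2 against 160 and 119 for succinate replicates 1 and 2. Both succinate libraries were thus above both controls. CAMTA1, a calmodulin-binding transcription activator gene on the same chromosome arm (chr1:6785454-7769706), held 14 and 0, from 43 and 20 control peaks and 128 and 70 succinate peaks. TSHZ2, a zinc finger transcription factor gene (chr20:52972358-53495330), held 12 and 2, with 53 and 29 control peaks and 66 and 56 succinate peaks. EXOC6B, an exocyst subunit gene, held 10 and 0, with 22 and 17 control peaks and 45 and 36 succinate peaks. In these 4 genes the treatments did not overlap. PTPRT, a receptor tyrosine phosphatase gene, did not follow: it held 8 succinate-only and 10 control-only regions, and its 169 and 84 control peaks overlapped in number with its 178 and 69 succinate peaks. A further 6 genes held 7 regions each. Among them XYLT1, whose product starts glycosaminoglycan chains, held no control-only region, with 14 and 10 control peaks and 41 and 32 succinate peaks. CAMK1D and PRKCE, both protein kinase genes, had no overlap between treatments either. CAMK1D had 32 and 18 control peaks and 44 and 34 succinate peaks, and PRKCE had 30 and 12 control peaks and 49 and 42 succinate peaks. In CDH4, RANBP2 and RBFOX1 the treatments overlapped. RBFOX1, a splicing factor gene, had 68 and 87 control peaks and 98 and 83 succinate peaks. The table gives RANBP2 an extent of 1123 kb that also holds other genes, SH3RF3 among them. These genes were chosen by their regions, which need a peak in both succinate libraries and in no control library. Higher succinate counts in them are thus partly built in. The share of all protein-coding genes in which the treatments do not overlap is not given here, so these peak counts are a description.

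**Figure D3:**
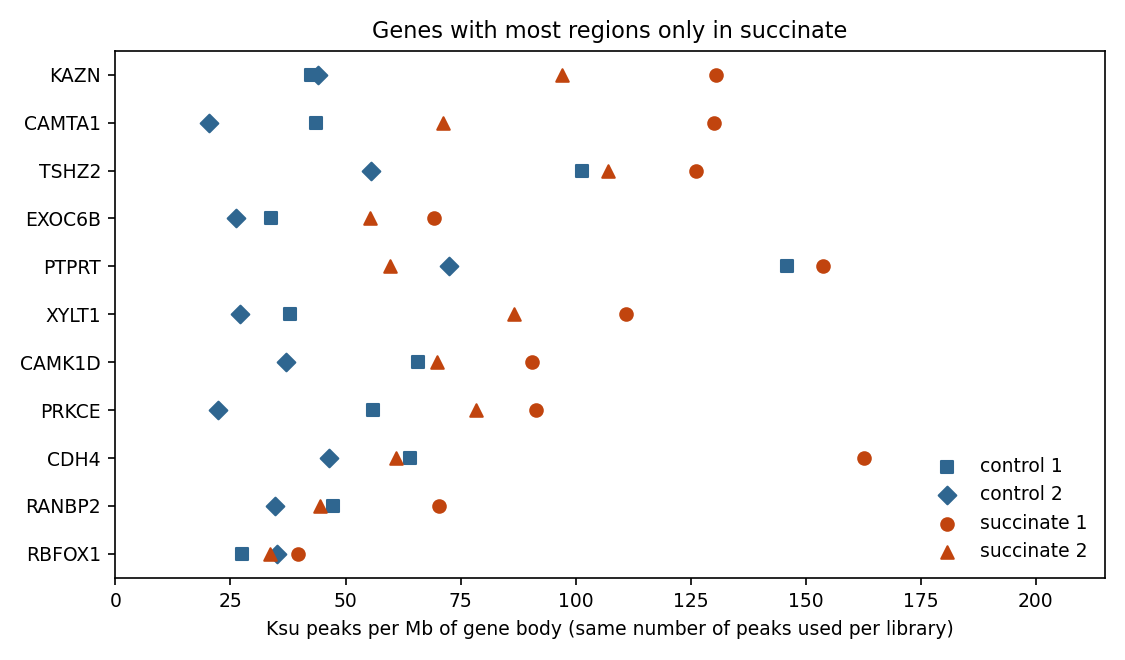
Ksu peaks per Mb of gene body (horizontal axis, starting at 0) for the 11 genes with 7 or more regions only in succinate; each gene has a point for each of the 4 libraries, with the same number of peaks used per library. In KAZN the control points lie at 42.4 and 44.1 per Mb and the succinate points at 131 and 97.1, while in PTPRT and RBFOX1 the treatments overlap.

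Across chromosomes the regions were unevenly spread. Chromosome 20 held the most per Mb at 6.53, followed by chromosome 10 at 3.98, chromosome 2 at 3.96, chromosome 16 at 3.10 and chromosome 6 at 2.56, and chromosome X held 0.064. These 5 chromosomes, picked after the values were seen, make up 22.7% of the genome and held 50.8% of succinate-only regions. They also held 44.3% of control-only regions and 37.3% of all regions, so most of this uneven spread was common to both treatments. HepG2 cells are known to carry extra copies of several chromosomes; copy number was not measured here and its part was not tested. The ratio of succinate-only to control-only regions showed another order. It was 7.20 on chromosome 22 (36 against 5 regions), 5.59 on chromosome 17 (190 against 34), 3.8 on chromosome 19 and 2.97 on chromosome 15. It was lowest on chromosome 5 at 0.329 (156 against 474) and chromosome 4 at 0.481. Over the 22 autosomes the log2 of this ratio went with the number of protein-coding genes per Mb, with a Spearman correlation of 0.64 and a Pearson correlation of 0.59, as a description of points that share the same 4 libraries.

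**Figure D4:**
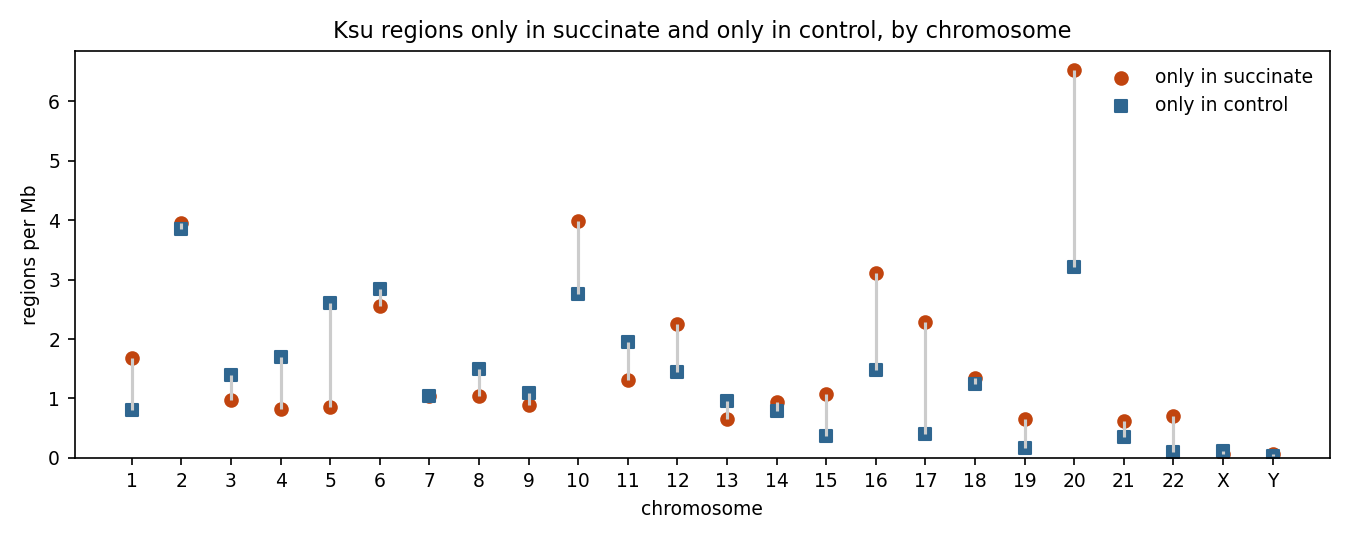
Regions per Mb (vertical axis, starting at 0) on each chromosome; circles are regions only in succinate, squares regions only in control. On chromosomes 17 and 20 circles lie above squares (2.28 against 0.408 and 6.53 against 3.22 per Mb), and on chromosome 5 below them (0.860 against 2.61).

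In windows of 1 Mb, the count was highest with 26 regions at 14 to 15 Mb of chromosome 1, within KAZN, where 2 regions were control-only. That window held 44 and 43 control peaks and 137 and 97 succinate peaks. Of the next 4 windows, 3 were on chromosome 20 and 1 on chromosome 2. The window at 58 Mb of chromosome 20, which includes the imprinted GNAS locus, held 22 succinate-only and 4 control-only regions. The window at 38 Mb of chromosome 20 held 18 and 0, and the window at 8 Mb of chromosome 2, around the transcription regulator gene ID2, held 17 and 0. The window at 59 Mb of chromosome 20 held 17 and 3. H3K27me3 peaks of the control libraries covered 33.3% and 23.5% of the KAZN window, and those of the succinate libraries 35.2% and 28.1%. Single regions were nonetheless scattered: 1837 of 3101 windows held at least 1, the nearest other region was a median of 104 kb away, and 7.58% had a neighbour within 10 kb, close to the 7.34% of control-only regions.

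Gene lists related to succinate, chromatin and liver were looked up, each beside the 8.86% of all protein-coding genes with a region. Among 28 genes of succinate metabolism and lysine succinylation, 2 (7.14%) held regions. SLC13A3, a sodium-dependent transporter of succinate and other dicarboxylates, held 2, with 7 and 1 control peaks and 11 peaks in each succinate library. SUCLG2, a subunit of succinyl-CoA ligase, held 1 succinate-only and 1 control-only region, with overlapping numbers of 8 and 4 control peaks and 6 and 14 succinate peaks. Among 26 genes of 2-oxoglutarate dioxygenases, 3 (11.5%) held regions. The DNA dioxygenase gene TET3 held 2, with 6 and 4 control peaks and 7 and 12 succinate peaks. The histone H3 lysine 9 demethylase gene KDM4C held 1, with 5 and 2 control peaks and 11 and 9 succinate peaks. JMJD1C, of the KDM3 family, held 2, although its 9 and 8 control peaks and 9 and 10 succinate peaks hardly differed in number. A control-only region was found in KDM2A. Among 12 PRC2 genes, JARID2, an accessory subunit that binds DNA, held 2 regions, with 10 and 5 control peaks and 12 and 15 succinate peaks. Peak counts are given only for genes that hold a succinate-only region, so higher succinate counts in them are partly built in. The share of all protein-coding genes in which the treatments do not overlap is not given here, so these counts are a description. None of the 21 hepatocyte transcription factor genes, 30 plasma protein genes or 12 housekeeping genes held a region. These lists span 1.11, 0.680 and 0.184 Mb, where the rate over all gene bodies was 2.02 regions per Mb. Among the plasma protein genes PLG held a control-only region (3.33% of that list, beside 4.19% of all protein-coding genes). HOXC4 was the single one of 39 HOX genes with a region. Of 250 ZNF genes on chromosome 19, ZNF536, ZNF528, ZNF534 and ZNF667 (1.60%) held 6 regions in all. Of 390 olfactory receptor genes, 5 (1.28%) held 4 regions. Control-only regions were in 2 of the ZNF genes and 4 of the receptor genes. The HOX, ZNF and receptor lists span only 0.269, 7.11 and 2.85 Mb. Succinate-only regions were 2.05% of the union regions in the ZNF genes and 1.44% of those in the receptor genes. In the 69 genes of 1 Mb or more, succinate-only regions were 1.30% of the union regions present and control-only regions 2.86%, against 2.29% and 1.46% over all gene bodies.

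Besides the promoters shown above, 25 further genes had a region at a listed start. They included UGT1A6, a liver glucuronosyltransferase, with a region at chr2:233690072-233691697 that ranked 19579 and 24489 and also lay inside 4 other UGT1A genes. Others among the 15 that ranked highest were GALC, TMCC1, FAM107B, OR9A2, SLC24A1, IFIT3, NCR1 and MUC3A. The promoter window was met by the peak of succinate replicate 1 alone at FAM107B, and of replicate 2 alone at GALC and IFIT3. At UGT1A6 and the other genes just named both libraries had a peak over the window. Some of the starts not named here were also met in a single succinate library. IFIT3 is induced by interferon, and NCR1 is a receptor of natural killer cells. Of the 31 regions at starts, 20 had no control peak in the complete lists, much the same share as the 65.2% of all succinate-only regions, those of DNMT3B, CACNB2 and UGT1A6 among them.

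H3K27me3 was the measure that took no part in choosing the regions. H3K27me3 peaks covered 21.6% and 12.4% of the bases of the succinate-only regions in control replicates 1 and 2 and 17.9% and 14.4% in succinate replicates 1 and 2. The treatments overlapped, and the log2 difference of succinate minus control was -0.031 against a pooled SD of 0.43 (n = 2 in each group, exact two-sided permutation p = 1, where 6 arrangements allow no p below 0.33). For control-only regions the cover in the same order was 6.88%, 3.45%, 4.48% and 3.22%, and for all union regions it was 11.8%, 6.72%, 9.50% and 7.47%. Succinate-only regions were thus more covered than both in each of the 4 libraries, control cells included. The cover of succinate-only regions was above that of control-only regions in all 4 libraries on 20 of 22 autosomes. The other pairs of libraries lay between, with 10.1% to 18.8% in control replicate 1, the highest being regions of the replicate 1 libraries. Regions of a single succinate library had 16.7% and 12.5% in control H3K27me3 replicate 1, and those of a single control library 9.12% and 4.95%.

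**Figure D5:**
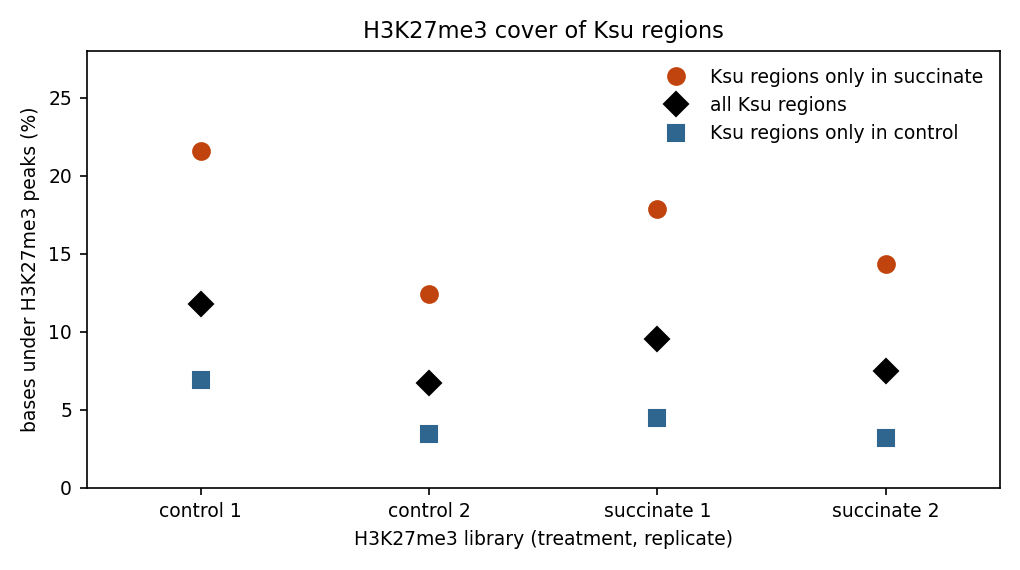
Share of bases under H3K27me3 peaks (vertical axis, percent, starting at 0) in each of the 4 H3K27me3 libraries, for Ksu regions only in succinate (circles), all Ksu regions (diamonds) and Ksu regions only in control (squares). Circles lie highest in every library, from 12.4% to 21.6%, and the libraries of the treatments overlap.

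Since the H3K27me3 lists differ in how much they cover, the cover of the succinate-only regions was divided by that of all union regions. The control libraries gave ratios of 1.83 and 1.84 and the succinate libraries 1.88 and 1.92, without overlap between treatments. Succinate minus control was 0.050 on the log2 scale, beside a pooled SD of 0.018 (n = 2 in each group, exact two-sided permutation p = 0.33, the smallest possible), a difference of a few percent in the ratio. It changed direction to -0.015 when H3K27me3 peaks above a common floor were used. It was 0.028 at equal numbers of H3K27me3 peaks and 0.049 for regions with no control peak in the complete lists. In these 3 alternatives the treatments overlapped (exact two-sided permutation p = 0.667 for each). Counted by region, 505 of 5169 (9.77%) lay under an H3K27me3 peak in all 4 libraries, beside 4.8% of all union regions and 2.35% of control-only regions, and 3976 (76.9%) lay under none, beside 87.7% and 92.5%. Regions under H3K27me3 in both succinate and neither control library numbered 13, or 0.251% beside 0.212% of all union regions, and the opposite change was present at 15, or 0.290% beside 0.173%. The highest ranked of the 505 lay at chr6:37711147-37713290, 14.3 kb from the start of MDGA1, and was covered over all 2144 bp in each library. The others named by rank lay in LOC124903827 on chromosome 1, 134 kb from ID2 on chromosome 2, and in CIMIP1 and ITGA3. Among the genes with most regions, 29.6% and 20.8% of KAZN was covered in the control libraries and 30.4% and 24.6% in the succinate libraries, while EXOC6B had none in any library. Inside and outside protein-coding gene bodies, the shares under H3K27me3 in all 4 libraries were 9.85% and 9.69%, and 19.6% and 23.6% of the bases were covered in control replicate 1.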

How the data were processed

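The files are peak lists, 1 for each of 8 libraries (4 Ksu, 4 H3K27me3) of 12 samples. Peaks were called with SEACR on hg38, per the submitters' processing notes. The deposited columns used are the total and the highest signal of each peak. The authors scaled this signal by an unstated factor in each library, and aligner, control track and threshold are not given in the sources used here. Signal was compared within a library or in steps. Depth is unknown.

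Regions were built as described above, with an overlap of at least 1 bp. Gene bodies and promoter windows came from RefSeq tables of GRCh38.p14, which hold no exons, so exons and introns were not told apart. Promoter windows were found for 15743 of 20037 protein-coding genes, none of them on chromosome 8, and distances use those. Members, gene lists and tests were chosen with earlier results of these data known. Regions were named by rank in both succinate libraries, by length, at gene starts, without control peaks and under H3K27me3, and genes and 1 Mb windows by their number of regions. H3K27me3 cover was compared by an exact two-sided permutation test of mean log2 shares. Functions were tested on simulated data. Python 3.11.15, numpy 2.4.6, pandas 2.3.3 and scipy 1.17.1 were used. Alternatives are given in the closing section.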

Additional observations from a re-analysis of the deposited data

Results flagged for a closer look

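Peaks on sequences outside the 24 chromosomes entered none of the comparisons. With the same minimum of total signal in each library, 10 regions there were present in both succinate libraries and neither control library and 5 in both control libraries and neither succinate library, out of 274 regions on 98 sequences. They are given because the succinate count is above the control count there. The difference was not tested, and it rests on the same Ksu peaks by which the regions were chosen.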

How the results depend on the processing

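Choosing the peaks differently changed how many regions were only in succinate: 2074 (1842 only in control) with 38351 peaks per library, 56291 (6579) with all peaks, 2186 (330) above a common floor of 8977 steps and 3425 (2609) when 50% of a region had to be covered. Leaving out a replicate gave 6011 to 63637, where the high values follow from asking for a single succinate library. With 1 kb merging, a 500 bp minimum or ranking by highest signal the count stayed within 1.5 times (4950 to 6955, and 3591), but ranking by highest signal overlapped 1011 of the 5169 regions, and there 4414 regions were only in control. The gene body difference kept its direction in all 13 alternatives: 18.5 points at the common floor, 11 with all genes of the table, and 9.05 (without control replicate 2) to 13.2 without each replicate. The value within chromosomes was chosen after seeing the data. The log2 difference between replicate pairs, a mean of 0.63, was 0.88 with 38351 peaks and 0.42 with all peaks. The log2 difference of H3K27me3 cover reversed to 0.18 at equal numbers of H3K27me3 peaks and 0.39 at a common floor (exact permutation p = 0.33 for both), and ranged from -0.43 to 0.37 without each replicate. Relative to all regions it was -0.015 at the common floor and kept its direction in the other 9 alternatives. The treatments overlapped at the common floor, at equal numbers of H3K27me3 peaks and for regions without any control peak (exact permutation p = 0.667 for each). The causes were not tested. With replicate number as a block the differences stayed -0.031 and 0.050, with exact permutation p = 1 and 0.5, the smallest the block allows. Deviations of same-numbered H3K27me3 libraries correlated at 0.47 over 1 Mb windows, but 2 pairs do not show that the numbers pair the samples.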

Other observations

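RefSeq microRNA hairpins were looked up in the same way, a lookup added once other results were known. Of 1562 hairpins on the chromosomes, 6 overlapped a region only in succinate (MIR4684, MIR4421, MIR6500, MIR877, MIR609 and MIR634) and 5 a region only in control. These numbers are too few for a comparison.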
